A study of Mus musculus with 16 samples.

Results

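The response to one treatment was compared between 2 sample types of the same mouse model. For each gene, the effect of adipose tissue-derived stem cells (ADSC) in whole liver was subtracted from that in hepatic inflammatory cells, and responses were described as shared, opposed or one-sided. All 16 arrays of the series entered, 4 in each of 4 groups given by the sample titles: liver PBS (numbers 11 to 14), liver ADSC (7 to 10), inflammatory cells PBS (11 to 14) and inflammatory cells ADSC (7 to 10). Every mouse was a female C57Bl/6 animal on an atherogenic, high-fat diet for 40 weeks, a model of steatohepatitis with cirrhosis. Treated mice received ADSC grown from the inguinal fat of GFP-transgenic mice, 100000 cells in each of 2 injections under the spleen capsule. Controls received phosphate-buffered saline (PBS), and samples were collected 2 weeks later. Nothing in the labels says that arrays stand for separate animals, and p-values here reflect sample-to-sample spread, which may be technical. Their extraction protocol speaks of cells from a tumor and of blood, which leaves their isolation unclear.

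Neutrophils carry their antimicrobial proteins in granules that are filled in a fixed order during maturation: azurophil granules with myeloperoxidase and serine proteases first, then specific granules with lactoferrin and cathelicidin. Kupffer cells are the resident macrophages of the liver, and monocytes recruited from blood add further macrophages during steatohepatitis. Whole liver RNA comes mostly from hepatocytes, so a leukocyte transcript is diluted there and concentrated in an inflammatory cell fraction.

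The promoters of 4 genes that stand for the main patterns are shown here, 250 bases up to the transcription start, from RefSeq on GRCm38.p6. Camp (cathelicidin), Ngp (neutrophilic granule protein) and Ltf (lactoferrin) were lower after ADSC in both sample types. Cdk1, the kinase that drives mitosis, was lower in inflammatory cells and not in liver. Camp lies at chr9:109849457-109849706 on the minus strand, Ngp at chr9:110419558-110419807 on the plus strand, Ltf at chr9:111019042-111019291 on the plus strand and Cdk1 at chr10:69352913-69353162 on the minus strand. Capitals mark matches, on either strand, to the C/EBP motif TTNNGCAA, the PU.1 motif GAGGAAG, the CHR element TTTGAA or the CCAAT box CCAAT.
Camp: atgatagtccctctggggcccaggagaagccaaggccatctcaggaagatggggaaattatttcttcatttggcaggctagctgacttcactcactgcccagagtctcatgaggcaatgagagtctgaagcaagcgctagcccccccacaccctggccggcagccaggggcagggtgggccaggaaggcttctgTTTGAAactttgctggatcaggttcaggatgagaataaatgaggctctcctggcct
Ngp: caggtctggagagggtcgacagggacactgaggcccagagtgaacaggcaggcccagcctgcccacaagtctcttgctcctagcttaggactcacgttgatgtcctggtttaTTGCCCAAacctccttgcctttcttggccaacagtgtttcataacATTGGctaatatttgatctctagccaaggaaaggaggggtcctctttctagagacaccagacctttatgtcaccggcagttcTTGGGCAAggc
Ltf: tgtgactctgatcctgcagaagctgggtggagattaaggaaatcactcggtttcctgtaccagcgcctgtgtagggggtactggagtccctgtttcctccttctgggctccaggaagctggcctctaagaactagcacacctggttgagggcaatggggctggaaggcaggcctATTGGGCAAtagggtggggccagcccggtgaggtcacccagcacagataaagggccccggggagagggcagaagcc
Cdk1: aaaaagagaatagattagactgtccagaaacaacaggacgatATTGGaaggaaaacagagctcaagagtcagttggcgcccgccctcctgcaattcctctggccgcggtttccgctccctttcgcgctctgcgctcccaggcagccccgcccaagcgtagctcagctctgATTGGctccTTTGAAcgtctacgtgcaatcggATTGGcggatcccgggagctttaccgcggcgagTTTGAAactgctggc

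Ngp held 2 C/EBP matches, 138 and 11 bases before the start, and Ltf held 1, 75 bases before the start, which overlaps its CCAAT box. Cdk1 held 2 CHR elements, 71 and 15 bases before the start, and 3 CCAAT boxes. Camp held 1 CHR element and none of the other letters in this window. Of all 32851 promoters of this length, 9.56% held the C/EBP motif, 10.6% the PU.1 motif, 16.0% the CHR element and 33.8% the CCAAT box. Counted per gene symbol, the PU.1 motif was in 16 of the 50 genes with a promoter entry among the 68 that were at least 2-fold lower in both sample types (32.0%). Among 243 such genes lower in inflammatory cells alone, 38 held it (15.6%), and over all 27025 symbols the share was 12.0%. The C/EBP motif was in 22.0%, 12.3% and 10.8% of the same sets. The CHR element was in 26.0%, 14.8% and 18.3% of them, and the CCAAT box in 44.0%, 40.3% and 37.5%. These are matches of letters and were not tested.

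More genes passed the test in inflammatory cells than in liver, and for few of them did the difference itself pass. The arrays were compared in limma on the log2 processed signal minus the 75th percentile of each array, keeping genes with a probe well above background on 4 or more of the 16 arrays, 22139 in all. All effects are on this log2 scale, ADSC minus PBS, with the standard error (SE) or 95% confidence interval of the fit and 4 arrays per group. After Benjamini-Hochberg adjustment 918 genes passed 0.05 in inflammatory cells (4.15%; 678 fell, 3.06%, and 240 rose, 1.08%) and 9 passed in liver (0.0407%; 7 fell, 0.0316%, and 2 rose, 0.00903%). The difference of the effects passed for 7 genes (0.0316%), each with a lower value in inflammatory cells. No gene passed in the higher direction in the limma fit, where 754 genes were higher at an unadjusted p under 0.05 (3.41%) against 1483 lower (6.7%). A pass in one sample type and not in the other is therefore a tested difference for these 7 genes only.

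The effects varied between arrays in both sample types. The median SD within groups was 0.30 in liver and 0.41 in inflammatory cells. The 918 calls became 287, 503, 415 and 509 without inflammatory cells PBS 12, ADSC 8, ADSC 9 and ADSC 10, and 1514 and 1921 without PBS 13 and ADSC 7. In liver the 9 calls became 42 without liver PBS 13 and 1 without liver ADSC 8. The files name 5 slides and 3 scan days, and only slide 2 (1 array per group) and scan day 2 held all 4 groups. Scan day 3 held 3 liver PBS arrays and 0 liver ADSC arrays, so scan day and treatment are close to inseparable in liver. Among 102 named genes the liver effect changed sign inside slide 2 for 40 and inside scan day 2 for 38, the inflammatory cell effect for 8 and 6, and the difference for 22 and 19. The values inside these batches, which rest on few arrays and have no test, follow the pooled ones where they change the picture. The liver arrays carried the defining hepatocyte genes: the mean of 23 hepatocyte plasma protein genes was 6.25 to 6.99 on the log2 scale in the liver arrays and 0.89 to 2.89 in the inflammatory cell arrays. T cell genes averaged 1.30 to 2.51 in the inflammatory cell arrays and -2.24 to -1.66 in liver. Exocrine pancreas genes, however, averaged -1.58 to 8.55 in the inflammatory cell arrays, highest in PBS 11, PBS 13 and ADSC 10, and -4.62 to -3.73 in liver.

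For a description of the responses, 15724 genes counted as measured in both sample types, having a probe well above background on 4 or more of the 8 arrays of each. Effects of at least 1 (2-fold) in both and of the same sign were found for 68 genes that were lower (0.432%) and 12 that were higher (0.0763%). Only 4 genes were opposed at that size. One-sided effects, at least 1 in one sample type and under 0.5 in the other, were far more frequent in inflammatory cells, with 389 lower (2.47%) and 298 higher (1.9%), than in liver, with 27 lower (0.172%) and 28 higher (0.178%). The remaining 14898 genes were in no class (94.7%). Across these genes the effects correlated with Pearson r = 0.32, and their SD was 0.30 in liver and 0.55 in inflammatory cells. Scaling to the 75th percentile of detected probes only moved the median inflammatory cell effect from 0.05 to 0.17, and the one-sided split there to 261 lower and 479 higher. With normexp background correction it was 293 lower and 85 higher under the 75th percentile, and 233 and 200 under quantile normalization. With array weights it was 485 and 485.

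**Figure D1:**
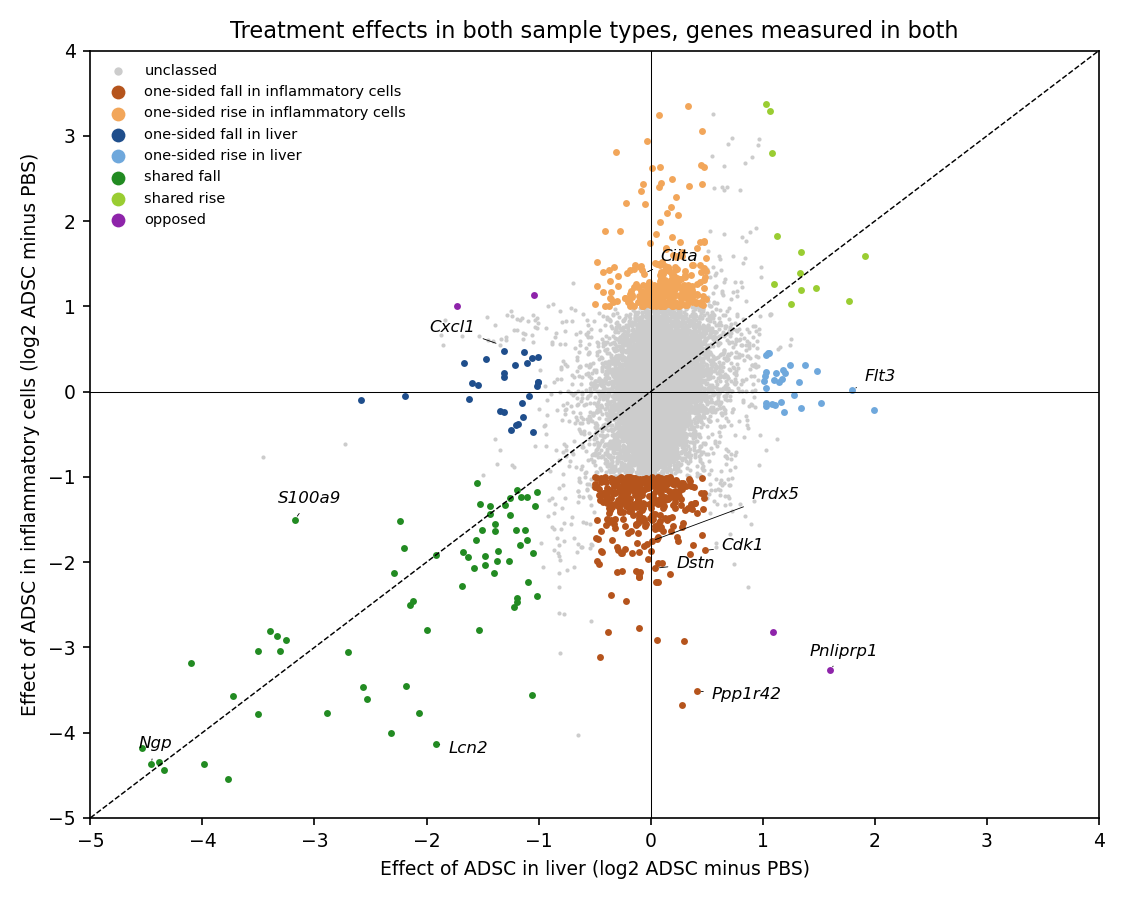
Each point is a gene measured in both sample types, with the log2 effect of ADSC in liver on the x axis and in inflammatory cells on the y axis, coloured by response class. The dashed line marks equal effects: the neutrophil gene Ngp lies near it at the lower left, while Prdx5, Dstn and Cdk1 lie below it near 0 on the liver axis.

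The shared response was a loss of neutrophil granule transcripts that was large in both sample types. Ngp stood at 0.78, 3.88, 0.66 and 2.06 in liver PBS 11 to 14 and at -1.28, -2.41, -3.23 and -3.54 in liver ADSC 7 to 10. In inflammatory cells its values were 6.58, 7.44, 5.25 and 4.87 after PBS and 2.16, 2.04, 1.47 and 0.98 after ADSC. No ADSC array reached a PBS array in either sample type, although the liver PBS arrays spread over more than 3 log2 units. The fall was 22.0-fold in liver (-4.46, adjusted p = 0.0428 in the limma fit) and 20.7-fold in inflammatory cells (-4.37, adjusted p = 0.00369). With quantile normalization, normexp with quantile, slide as a fixed block or scan day as a term, no gene passed in liver, Ngp included. The same held in a separate fit of the liver arrays and without the 3 pancreas-rich arrays. The difference of 0.09 had a 95% interval of -2.03 to 2.20, so an unequal effect of up to about that size is not excluded by these arrays. As these are bulk samples, fewer neutrophils and less granule RNA per neutrophil cannot be told apart.

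Ltf, the iron-binding lactoferrin of specific granules, had liver values of 1.28, 4.46, 0.68 and 2.62 after PBS and -0.80, -1.99, -2.81 and -2.75 after ADSC. Its inflammatory cell values were 7.13, 8.09, 5.68 and 5.83 after PBS and 2.61, 2.60, 2.06 and 1.69 after ADSC. Here too the groups were separate in both. The effects were -4.35 and -4.44, with a difference of -0.10 (95% interval -2.26 to 2.06). Camp, the precursor of an antimicrobial peptide, had effects of -4.38 and -4.34 and a difference of 0.04 (-2.20 to 2.29); its liver effect did not pass alone (adjusted p = 0.0544). Mpo, the peroxidase of azurophil granules, had effects of -4.54 in liver and -4.18 in inflammatory cells, a difference of 0.36 (-2.05 to 2.76). For Ctsg, the serine protease cathepsin G, they were -3.77 and -4.54, a difference of -0.77 (-3.06 to 1.52). With normexp background correction the differences of Ngp, Ltf and Camp were -1.07, -1.13 and -1.04 with the 75th percentile and -1.06, -1.11 and -0.87 with quantile normalization. In these genes liver PBS 12 was the highest liver array and liver PBS 13 the lowest of the liver PBS arrays.

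S100a8, a subunit of calprotectin, a calcium-binding protein of the neutrophil cytosol, was lower by 3.40 in liver and 2.81 in inflammatory cells. Its liver effect was -0.99 inside slide 2 and -1.76 inside scan day 2. Trem1, a receptor that amplifies neutrophil and monocyte activation, had 0 liver ADSC arrays well above background. It was at least 4.15-fold lower in liver after ADSC (adjusted p = 0.0226) and 7.32-fold lower in inflammatory cells (adjusted p = 0.00406), and its other probe gave -1.56 and -2.40. How equal its effects were is not measured, as the liver value is a bound. Stfa2l1, a stefin that inhibits cysteine proteases, was lower by 3.50 and 3.78. Its liver effect was -0.84 inside slide 2 and -0.99 inside scan day 2. These 8 genes were chosen as the falls with the smallest larger p of both effects, so a small p of the average follows from the choice. The average of both effects passed 0.05 for each of these 8 genes, with adjusted p between 0.000697 and 0.00175. It kept its sign and stayed under 0.05 for all 8 under every alternative that gave a value and with each array left out in turn.

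**Figure D2:**
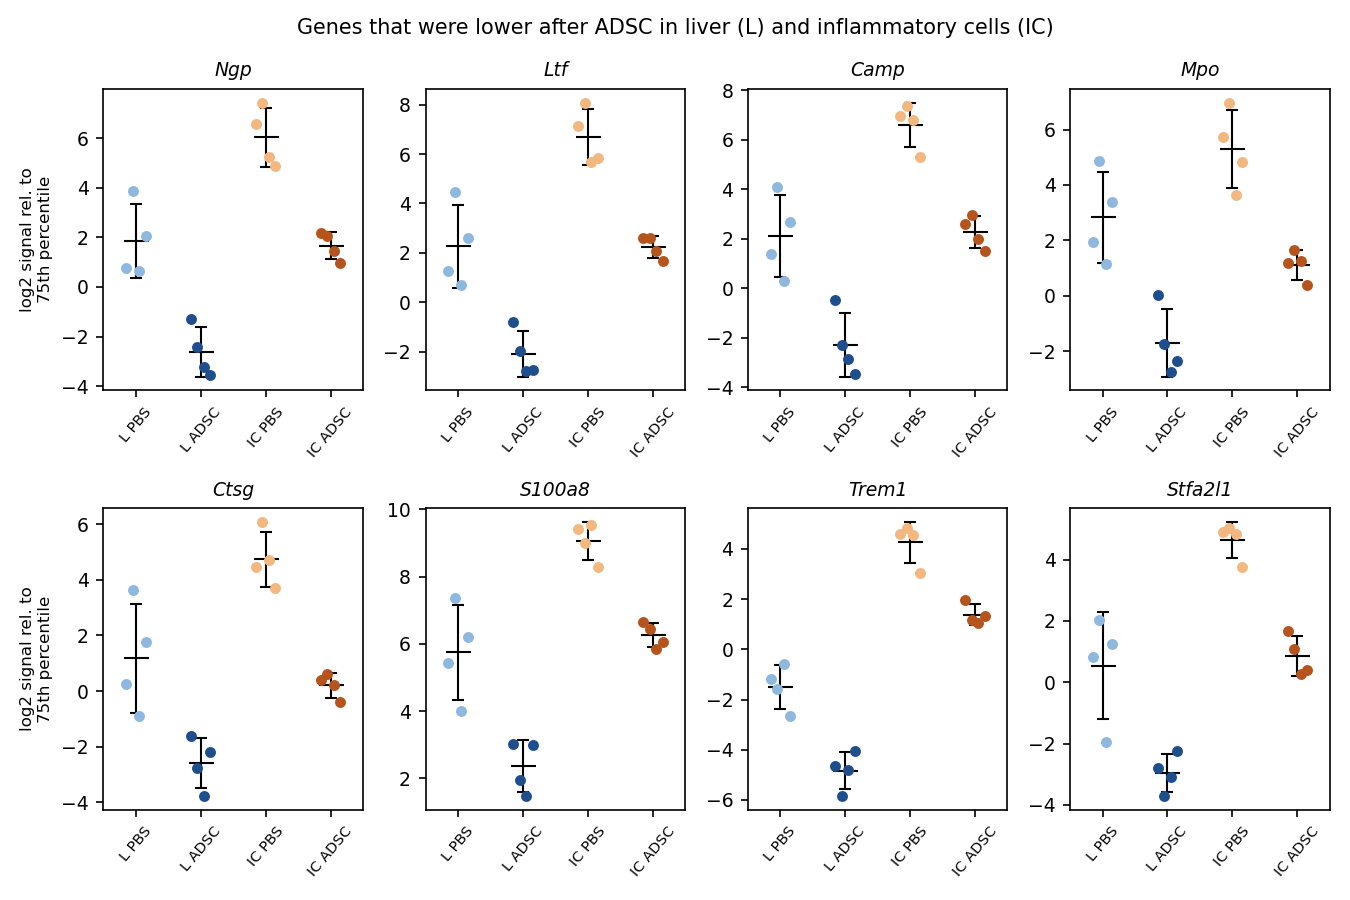
Signal of each of 16 arrays (log2, scaled to the 75th percentile) for 8 genes that were lower in both sample types; points are arrays, black bars the group mean and SD of 4 arrays. In each panel the ADSC arrays lie below the PBS arrays of the same sample type, for Ngp between -3.54 and -1.28 against 0.66 to 3.88 in liver.

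Requiring both effects to pass together, no gene reached 0.05 in the limma fit (lowest adjusted p 0.108, for Ngp, Ltf and Trem1), while 182 genes had the same sign and an unadjusted p under 0.05 in both (0.822%; 135 lower and 47 higher). Without liver PBS 13, 17 genes passed. The average effect passed for 54 of the 68 genes lower in both (79.4%) and for 1 of the 12 higher in both (8.33%), against 266 of all genes tested (1.2%), and its 266 calls ranged from 111 without liver PBS 14 to 522 without inflammatory cells ADSC 7. The difference had an unadjusted p under 0.05 for 5 of the 68 (7.35%), against 10.1% of all genes. Both classes are cut on the size and sign of the same effects, so these shares follow in part from the cut and are no separate support. Without liver PBS 12 the 68 became 39. Within the batches the effects were less equal. Inside scan day 2 the liver effect of Ngp was -2.91 and the inflammatory cell effect -4.90, a difference of -1.99, and Ltf, Camp, Mpo and Ctsg gave differences of -2.51, -2.42, -2.43 and -2.97. Inside slide 2 those 5 differences were -2.60, -3.05, -3.24, -2.97 and -3.12. That slide's liver arrays were PBS 13 and ADSC 7, the lowest PBS and the highest ADSC array for these genes. With scan day as a term in the fit of all arrays they were -0.45, -0.57, -1.25, 0.14 and -1.60. With slide as a block they were -0.01, -0.13, -0.77, 0.42 and -0.96. None of these passed.

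Read by gene list, the neutrophil genes were lower in both sample types. Of the 9 measured genes of specific and gelatinase granules, 7 were at least 2-fold lower in both and 7 passed in the average effect, with medians of -2.89 in liver and -3.77 in inflammatory cells. Over the 5 azurophil granule genes measured in both sample types the medians were -3.77 in liver and -3.18 in inflammatory cells, with 4 passing in the average. The 12 such genes of mature neutrophils and calprotectin had -2.19 and -2.20, with 8 passing. Over all genes measured in both the medians were 0.04 and -0.03. Of these 15724 genes, 214 passed in the average effect and 68 were at least 2-fold lower in both (0.432%). The median difference was -0.70 for the specific granule genes, -0.36 for the azurophil genes and -0.13 for the mature neutrophil genes, against -0.07 for all of these genes. For the azurophil genes the median of the differences and the difference of the medians have opposite signs. With all 9, 7 and 15 tested members they were -0.70, -0.77 and -0.08, and without liver PBS 13 they were -0.34, -0.077 and 0.37. Inside slide 2 the liver medians of the tested members were only -0.78, -0.74 and -0.76, and the differences -2.60, -2.97 and -1.99. Inside scan day 2 they were -1.38, -1.50 and -0.72, with differences of -2.42, -2.43 and -2.51. Of 9 tested neutrophil-attracting chemokines and growth factors, 8 were lower in liver and 7 in inflammatory cells (38.1% and 45.7% of all genes). Over the 5 measured in both sample types the median difference was 0.47. Of these, 2 were higher at an unadjusted p under 0.05 (2.64% of all such genes) and 0 lower. Among signals that draw neutrophils, Cxcl5 was lower by 3.99 in liver and 4.37 in inflammatory cells (adjusted p = 0.44 and 0.0257), and Il1b by 1.48 and 1.93 (0.826 and 0.0362). In liver the effect of Cxcl5 was -0.77 inside slide 2 and -1.28 inside scan day 2, and that of Il1b turned to 0.29 and 0.09. These lists were drawn up with earlier results of the data known, so their counts are descriptions.

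Some neutrophil-associated genes were unequal. Lcn2, the iron-scavenging lipocalin that hepatocytes also make in inflammation, stood at 5.82, 6.78, 5.24 and 5.73 in liver PBS and 4.45, 4.03, 3.28 and 4.12 in liver ADSC. In inflammatory cells it went from 5.82, 6.78, 5.47 and 4.28 to 1.82, 1.71, 1.09 and 1.20. The arrays did not overlap in either sample type. The effect was -1.92 in liver and -4.14 in inflammatory cells, and the difference of -2.22 (95% interval -3.54 to -0.89) did not pass (adjusted p = 0.236). It was -3.32 inside slide 2 and -3.16 inside scan day 2. Wfdc21, a small protease-inhibitor-like protein, was lower by 0.65 in liver and 4.03 in inflammatory cells, a difference of -3.38 (-4.71 to -2.06, adjusted p = 0.0799). That difference was -1.77 inside slide 2 and -2.70 inside scan day 2. S100a9, the partner of S100a8, went the other way, with -3.18 in liver and -1.50 in inflammatory cells. Its difference of 1.67 (0.25 to 3.10, adjusted p = 0.428) shrank to 0.26 inside scan day 2 and turned to -0.74 inside slide 2.

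Higher values in both sample types were few and small. The 8 genes named by their joint p were Camk1d, Dnmt3a, Fcrl1, Foxd3, H1f8, Mup1, Mup4 and Tenm4, and none passed in the average effect (adjusted p 0.068 to 0.191). Camk1d, a calcium-dependent kinase, was 0.55 higher in liver and 0.64 higher in inflammatory cells, and its other probe gave -0.48 in liver. The other Fcrl1 probe gave -0.22 in liver, and the other Dnmt3a probes gave -0.04 and -0.18 in inflammatory cells. For these genes the shared direction therefore depends on the probe. Mup1, a major urinary protein secreted by hepatocytes, was 1.07 and 0.90 higher, with arrays overlapping in both sample types. Its liver effect turned to -0.50 inside slide 2 and -0.33 inside scan day 2. Probes of the Mup family can pick up each other's transcripts.

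The 7 tested differences were genes that fell in inflammatory cells and not in liver. Prdx5, a peroxiredoxin that removes peroxides in mitochondria and peroxisomes, stood at 5.10, 5.50, 5.39 and 4.66 in inflammatory cells PBS 11 to 14 and at 3.38, 3.59, 3.33 and 3.33 in ADSC 7 to 10. In liver it stayed between 3.80 and 4.13 on all 8 arrays. Only the inflammatory cell groups were separate. The effect was 0.01 in liver and -1.75 in inflammatory cells (3.37-fold lower), and the difference was -1.76 with an SE of 0.25 (95% interval -2.30 to -1.22, limma adjusted p = 0.0281).

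Dstn, or destrin, which severs and depolymerises actin filaments, was equally flat in liver, between 3.20 and 3.46. In inflammatory cells it went from 3.30, 4.14, 3.54 and 2.76 after PBS to 1.23, 1.48, 1.07 and 1.67 after ADSC, a fall of 2.07. Its difference was -2.11 (SE 0.33, adjusted p = 0.0372). Cdk1 stood at -1.32, -0.01, -0.80 and -1.41 after PBS and at -2.61, -2.98, -2.78 and -2.62 after ADSC in inflammatory cells, and between -3.08 and -2.24 in liver. The difference was -2.35 (SE 0.38, adjusted p = 0.0481). Only 2 of the 4 inflammatory cells ADSC arrays had this probe well above background. The other Cdk1 probe was above background on 1 of 16 arrays, and the mean of both probes gave -0.78 (adjusted p = 0.575).

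Smim5, a small integral membrane protein, had effects of opposite sign. It was 0.53 higher in liver and 1.43 lower in inflammatory cells, with no overlap of arrays in either, a difference of -1.96 (SE 0.30, adjusted p = 0.0338). BC049694 did the same at larger size: its liver values were -1.28 to -0.57 after PBS and -0.33 to 0.10 after ADSC. Its inflammatory cell values were 0.36 to 1.65 after PBS and -1.50 to -1.07 after ADSC, and the difference was -2.77 (SE 0.36, adjusted p = 0.0225). For both genes the liver effect alone did not pass (adjusted p = 1.00 for Smim5 and 0.954 for BC049694).

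Mfsd7a, a membrane protein of the major facilitator superfamily, and Ppp1r42, a regulatory subunit of protein phosphatase 1, had 0 inflammatory cells ADSC arrays well above background. Mfsd7a was at least 2.95-fold lower there after ADSC, and Ppp1r42 at least 3.99-fold. In liver Mfsd7a lay between -2.56 and -1.93 and Ppp1r42 between -0.43 and 0.82, on overlapping arrays. The fitted differences were -2.04 (SE 0.28, adjusted p = 0.0225) and -3.93 (SE 0.59, adjusted p = 0.0338), and their sizes rest on signals below background.

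**Figure D3:**
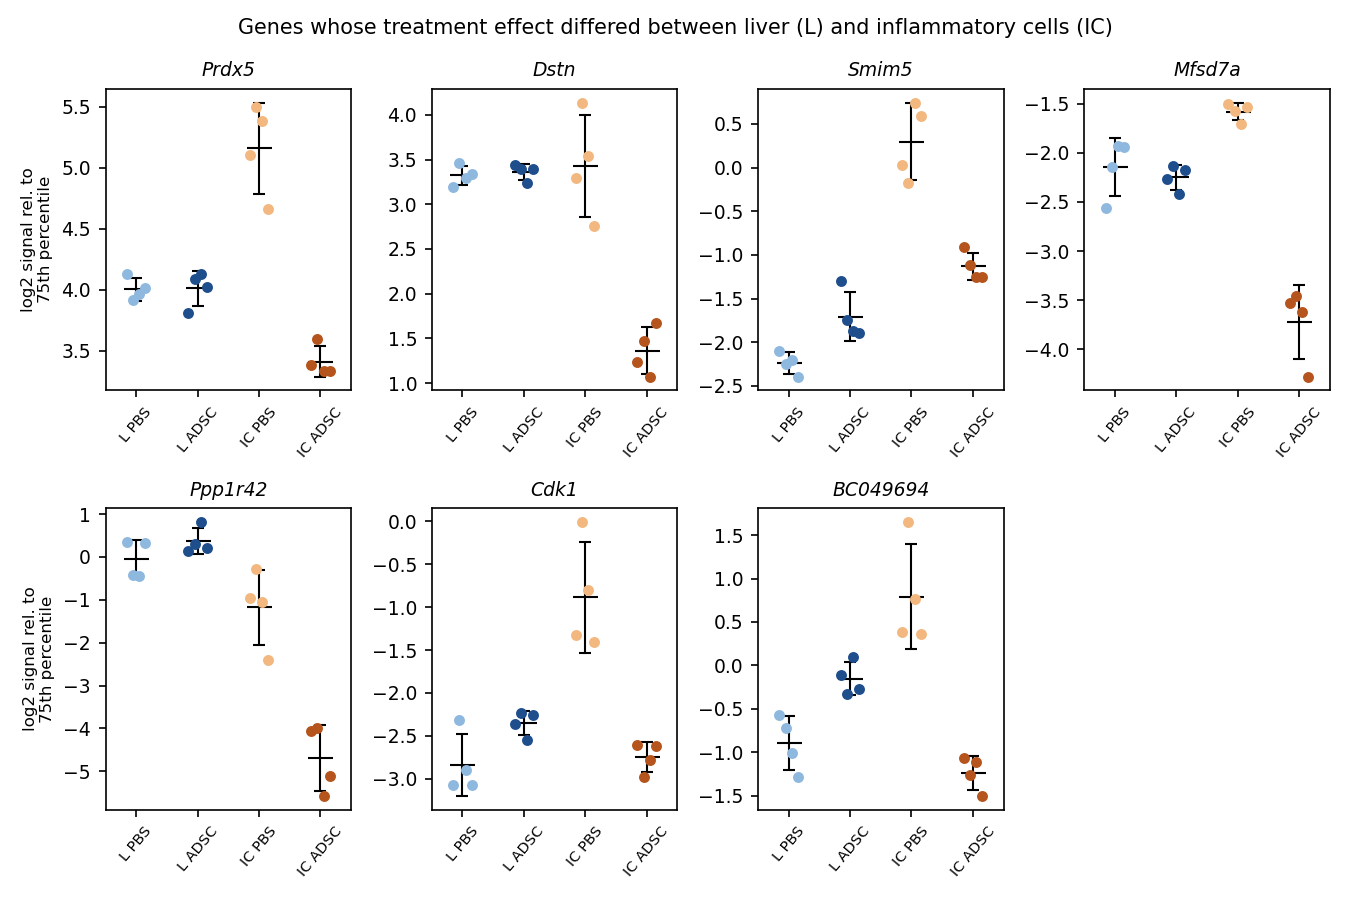
Signal of each of 16 arrays (log2, scaled to the 75th percentile) for the 7 genes whose treatment effect differed between sample types; points are arrays, black bars the group mean and SD of 4 arrays. In inflammatory cells the ADSC arrays lie below the PBS arrays in every panel, while in liver Prdx5 stays between 3.80 and 4.13.

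The sign of these 7 differences was negative under every alternative and with each array left out, but the calls were not stable. No gene passed without any one of liver PBS 12, 13 or 14 or liver ADSC 7, 8 or 10, where 1854 to 2174 genes had an unadjusted p under 0.05. There were 2 calls without liver PBS 11 or inflammatory cells PBS 13, 3 without liver ADSC 9 or inflammatory cells ADSC 9, 4 without inflammatory cells ADSC 8 and 1 without ADSC 10. There were 15, 47 and 20 without inflammatory cells PBS 11, PBS 14 and ADSC 7. With slide as a block or scan day as a term no gene passed, with the 7 at adjusted p between 0.109 and 0.277 and between 0.122 and 0.186. The sizes stayed between -1.56 and -4.18. With the replicate number as a fixed block no gene passed either, where 2046 had an unadjusted p under 0.05. Inside slide 2 the differences were -1.36 for Prdx5, -1.96 for Dstn, -2.19 for Cdk1, -2.05 for Smim5, -2.54 for BC049694, -1.62 for Mfsd7a and -3.61 for Ppp1r42. Inside scan day 2 they were -1.82, -2.41, -2.57, -1.56, -3.18, -1.55 and -4.32. Leaving out the 3 pancreas-rich arrays gave 8 calls, 3 lower and 5 higher, and kept 2 of the 7 calls, Mfsd7a and BC049694. The 7 differences were then -1.65 to -3.62.

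Just outside the threshold lay further named genes that fell in inflammatory cells with liver effects of 0.20 or less. Lyz1 and Slc40a1 are described below, and 4 others are given here. They were Cpne3, a copine that binds membranes in a calcium-dependent way (difference -1.33, adjusted p = 0.0564), Pygl, the glycogen phosphorylase of liver and leukocytes (-2.31, 0.0689), Adssl1, an enzyme of purine synthesis (-1.42, 0.0689), and Dhrs1, a short-chain dehydrogenase (-1.53, 0.0799). At an adjusted p under 0.1 there were 54 negative and 5 positive differences. Of the 389 genes lower in inflammatory cells alone, 294 had a difference at an unadjusted p under 0.05 (75.6%), against 10.1% of all genes; the class itself is cut on the size of the same effects. Other members picked after their values were seen included Anxa1, the anti-inflammatory annexin A1 (liver -0.45, inflammatory cells -3.11), Anxa2 (0.02 and -1.50), Txn1, the redox protein thioredoxin (0.22 and -1.24), and Gsr, glutathione reductase (-0.11 and -1.88).

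Of 20 macrophage genes, 7 were one-sided falls in inflammatory cells, against 2.47% of all genes measured in both sample types. A further 3 were at least 2-fold lower in both, against 0.432%. Lyz1, a lysozyme of myeloid cells, stood at 7.11, 7.60, 8.19 and 7.31 in inflammatory cells PBS and at 5.96, 5.97, 5.89 and 6.08 in inflammatory cells ADSC. Its liver arrays overlapped, between 5.50 and 6.43. The fall in inflammatory cells was 2.97-fold (adjusted p = 0.00341), and the difference of -1.77 did not pass (adjusted p = 0.0799). Lyz1 and its neighbour Lyz2 are near-identical, and short probes may not separate them. Of 20 measured monocyte and macrophage genes, 13 fell in inflammatory cells (3.06% of all genes fell) and 0 in liver in the limma fit, where 5 were lower at an unadjusted p under 0.05. All 20 differences were negative (52.2% of all genes), 10 of them at an unadjusted p under 0.05 (6.7% of all genes) and none after adjustment. The medians were -0.27 in liver, -1.19 in inflammatory cells and -0.96 for the difference, which ranged from -1.34 to -0.74 over the alternatives. The liver median turned to 0.63 inside slide 2 and 0.26 inside scan day 2, with differences of -1.71 and -1.39.

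Among these, Fcgr3 and Fcgr1, receptors for antibody-coated particles, were lower by 1.74 and 1.53 in inflammatory cells and by 0.34 and 0.37 in liver. Spp1, or osteopontin, a marker of lipid-associated macrophages that is also in the cholangiocyte list, was lower by 1.57 and 0.13. Its liver effect turned to 1.46 inside slide 2 and 1.20 inside scan day 2. The smallest differences were those of Itgam, Cx3cr1 and Spi1, at -0.19, -0.23 and -0.20. Cd14 and Clec4e, sensors of microbial products, were lower by at least 1 in both sample types. Inside slide 2 and scan day 2 the liver effect of Cd14 was 0.21 and 0.08 and that of Clec4e -0.14 and -0.36. The median difference of 8 C1q and Fc receptor genes was -0.80, all 8 negative, with Fcer1g, the signalling chain of Fc receptors, at -1.29. Among the 10 Kupffer cell genes measured in both sample types the median was -0.97. Slc40a1, the iron exporter ferroportin, went from 1.51, 2.47, 1.75 and 1.97 to -0.22, 0.22, 0.55 and 0.79 in inflammatory cells. Its liver arrays overlapped, between 3.44 and 4.24. Its difference was -1.69 (adjusted p = 0.0914). Cd5l, a protein secreted by macrophages, was 0.06 higher in liver and 1.71 lower in inflammatory cells.

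Cell cycle genes had lower effects in inflammatory cells than in liver. The differences of all 20 members measured in both sample types were negative (56.2% of all such genes), 10 of them with an unadjusted p under 0.05 (8.22%), and only that of Cdk1 passed. Their median effects were 0.14 in liver and -0.73 in inflammatory cells. A further 5 members were tested but not measured in both. With these the median difference was -1.16, and -0.60 and -0.66 under both normexp alternatives. Tyms, which makes thymidylate for DNA synthesis, fell by 1.14 in inflammatory cells (adjusted p = 0.00628) and Kif20a, a kinesin of cell division, by 1.31 (0.0176), with liver effects of 0.13 and 0.71. The replication helicase subunits Mcm2, Mcm4 and Mcm6 had differences of only -0.15, -0.23 and -0.18. Respiratory chain genes showed the same order at smaller size, with 19 of 19 differences negative, 4 at an unadjusted p under 0.05 (21.1% against 8.22%), and medians of 0.14 in liver and -0.48 in inflammatory cells. The median difference of -0.59 was -0.30 with quantile normalization, with 16 of 19 negative, and 15 were negative with scan day as a term. It was -0.18 inside scan day 2 and 0.07 inside slide 2. Il17a, the cytokine that induces neutrophil chemokines, fell by 2.74 in inflammatory cells (adjusted p = 0.0104) and had 0 liver arrays well above background.

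In the limma fit 0 genes passed for a higher effect in inflammatory cells than in liver, with 754 at an unadjusted p under 0.05, and lists on that side included those of B cells and antigen presentation. Of the 298 genes higher in inflammatory cells alone, 106 had a difference at an unadjusted p under 0.05 (35.6%), against 10.1% of all genes, and this class too is cut on the size of these effects. Ciita, the master regulator of MHC class II genes, stood at 1.84, 1.24, 0.65 and 0.57 in inflammatory cells PBS and at 1.95, 2.36, 2.80 and 2.72 in inflammatory cells ADSC. The groups were separate by a narrow gap, while the liver arrays, between 0.01 and 0.78, overlapped. Ciita rose 2.61-fold in inflammatory cells (adjusted p = 0.0139), and its difference was 1.45 (95% interval 0.59 to 2.30, adjusted p = 0.234). It was 0.79 inside slide 2 and 1.13 inside scan day 2. All 7 MHC class II genes measured in both sample types had a positive difference (43.8% of all such genes), 4 with an unadjusted p under 0.05 (2.64%), and their median was 0.79. Over the 9 tested members the median was 0.46 inside scan day 2 and turned to -0.27 inside slide 2. Cd74, the invariant chain, was 0.30 lower in liver and 0.61 higher in inflammatory cells.

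Cd22, an inhibitory receptor of B cells, went from 0.79, 0.21, -1.58 and -0.49 to 1.21, 1.61, 1.82 and 1.80 in inflammatory cells (adjusted p = 0.0101). In liver it was also higher, by 0.53, without overlap of arrays. Its difference of 1.35 was 0.10 inside slide 2 and 0.35 inside scan day 2. Of the 12 B and plasma cell genes measured in both sample types 11 had a positive difference (43.8% of all such genes), with a median of 0.79. Over the 17 tested members the median was 0.81, 0.32 with scan day as a term, 0.23 inside scan day 2 and -0.54 inside slide 2. Those that rose in inflammatory cells (1.08% of all genes rose) included Cd22, Tnfrsf13c and Fcer2a. T cell genes had medians of 0.01 in liver and 0.21 in inflammatory cells. As no positive difference passed, the 10 genes named on that side were chosen by the smallest p and not by size. They included Dclk2, a doublecortin-like kinase, at 1.47 (adjusted p = 0.105), with 0.39 inside slide 2 and 1.02 inside scan day 2. Zfp318, which B cells need to express IgD, was another (1.23, 0.138). The others, Ablim1, Amer2, Ciita, H2-Q8, Lhx1, Ptp4a3, Rbm26 and Whrn, lay between 0.82 and 2.12. For Amer2 the value of 2.12 rests on 1 probe with 0 liver ADSC arrays well above background, and the other probe gave 0.14.

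Hepatocyte genes also had higher effects in the inflammatory cell fraction. Of 23 hepatocyte plasma protein genes 19 had a positive difference (47.8% of all genes tested; 14 of 23 with array weights), with medians of 0.08 in liver, 0.62 in inflammatory cells and 0.53 for the difference (0.23 to 0.82 over the alternatives). Apoa1, the protein of high-density lipoprotein, rose by 1.58 there (adjusted p = 0.0488), and Serpinc1, antithrombin, by 1.45 (0.0492). F7, coagulation factor VII, stood against them with a fall of 1.42 (adjusted p = 0.0103); its effect was -0.25 inside slide 2 and -0.91 inside scan day 2. The list's mean level was 0.89 to 2.13 in inflammatory cells PBS and 1.48 to 2.89 in ADSC, and its part in the other results was not tested. Inside slide 2 and scan day 2 the liver median of the hepatocyte list was -0.55 and -0.29, and its median difference 2.10 and 0.92. Erythroid genes had a median difference of 0.74, between -0.04 and 1.42 over the alternatives, and their mean was 1.47 to 1.98 after PBS and 0.79 to 2.72 after ADSC. The erythroid median difference was 1.17 inside slide 2 and 0.0015 inside scan day 2.

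**Figure D4:**
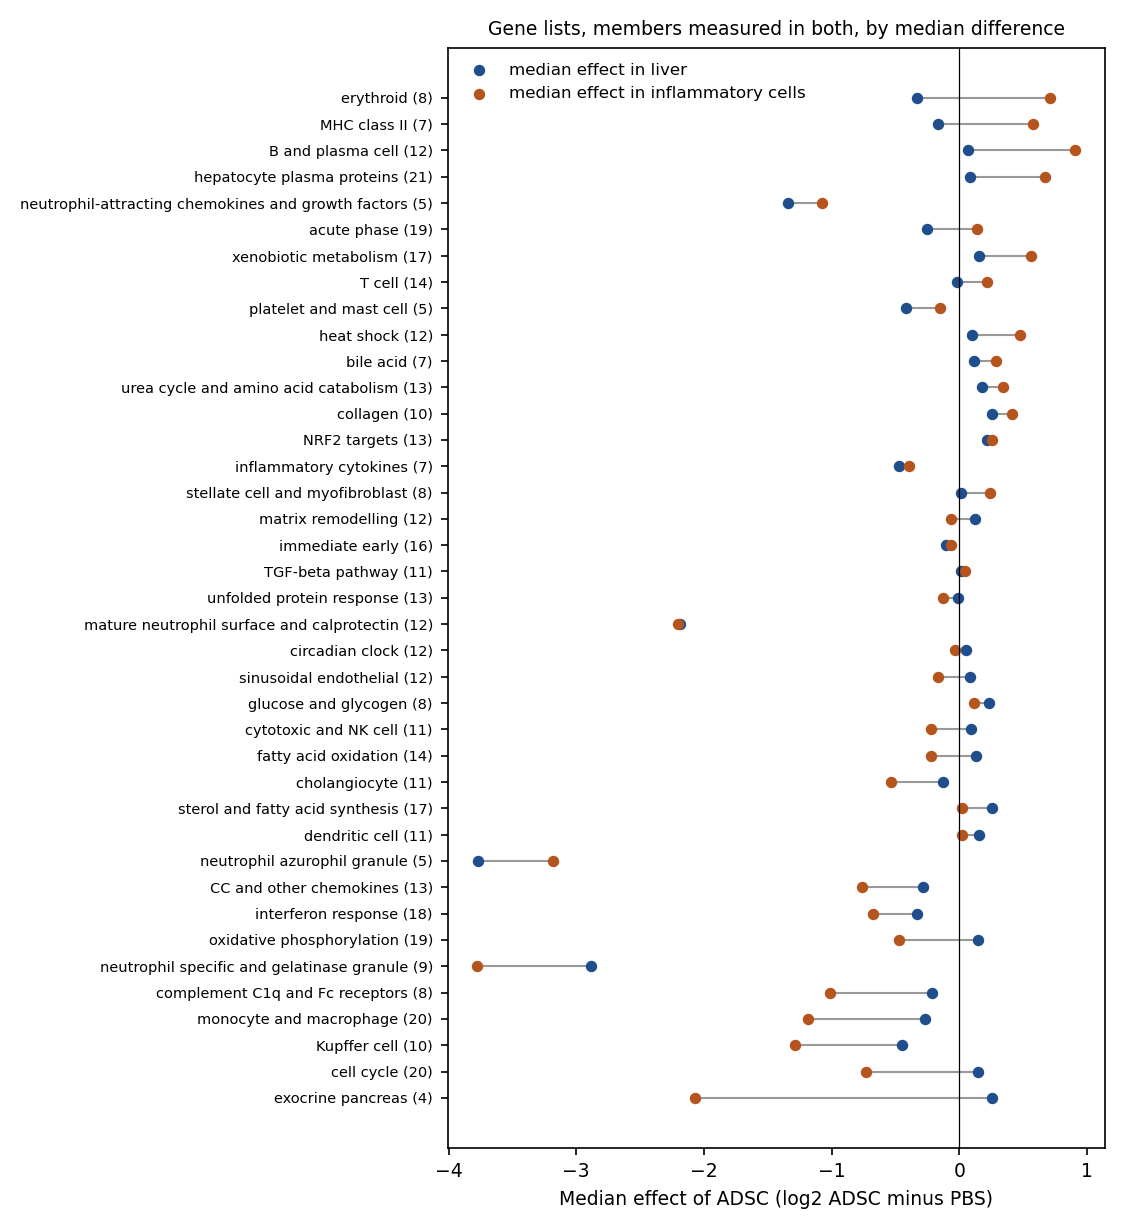
Medians of the log2 effect of ADSC in liver and in inflammatory cells over the members of each gene list measured in both sample types (number in brackets), ordered by the median difference. The 3 neutrophil granule and surface lists lie far left for both sample types, the cell cycle list is below 0 for inflammatory cells and above it for liver, and MHC class II and B cell lists each have a median difference of 0.79.

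One-sided effects in liver were few and none of their differences passed. Flt3, a receptor of dendritic cell precursors, stood at -4.63, -4.37, -4.06 and -3.58 in liver PBS and at -1.52, -3.30, -3.22 and -1.42 in liver ADSC, a separation without overlap. In inflammatory cells it stayed between -1.44 and -0.94 on all 8 arrays. Its liver effect was 1.80 (adjusted p = 0.19) and the difference was -1.77 (adjusted p = 0.289), and only 2 of 4 liver PBS arrays had it well above background. Tnf was 1.18 lower in liver and 0.38 lower in inflammatory cells, and Ccl17, a chemokine for T cells, 1.34 and 0.23 lower; both were picked after their values were seen. Of the 27 lower and 28 higher genes, 6 (22.2%) and 8 (28.6%) had a difference at an unadjusted p under 0.05, against 10.1% of all genes, and these classes are again cut on the size of the same effects. The 55 genes became 89 without liver PBS 14 and 87 without liver ADSC 9.

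Cxcl1, a chemokine that attracts neutrophils, came closest to an opposed response among the immune genes. It stood at 2.47, 2.15, 1.79 and 2.03 in liver PBS and at 0.29, 1.02, 0.49 and 1.27 in liver ADSC. In inflammatory cells it was 2.59, 1.55, 3.02 and 1.06 after PBS and 2.09, 1.87, 2.81 and 3.66 after ADSC. The liver groups were separate and the inflammatory cell groups overlapped. The effects were -1.34 and 0.55, and the difference of 1.90 (95% interval 0.60 to 3.19) did not pass (adjusted p = 0.335). It was 0.78 inside slide 2, 1.32 inside scan day 2, 0.72 with slide as a block and 0.89 with scan day as a term. The inflammatory cell effect itself was -0.72 inside slide 2 and -0.09 inside scan day 2, so the signs were not opposed there.

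Strictly opposed effects of at least 1 were found for 4 genes, 2 in each direction (0.0127% each). The 2 with a symbol were the pancreatic genes Pnliprp1, a lipase-related protein, and 2210010C04Rik, the first with 1.60 in liver and -3.27 in inflammatory cells, the second 2.14-fold higher and 7.04-fold lower. The other probe of 2210010C04Rik gave 0.37 in liver, under the size that the class requires, and -3.48 in inflammatory cells. In inflammatory cells Pnliprp1 stood at 5.53, 0.90, 7.82 and 1.13 after PBS and at -4.39, -0.90, 0.08 and 7.52 after ADSC. Its high arrays were the 3 that were high for the pancreas list as a whole, and only 1 of 4 liver PBS arrays had its probe well above background. The 95% interval of its difference ran from -10.8 to 1.02. The 4 pancreas genes measured in both sample types had negative differences, median -2.27, and none had an unadjusted p under 0.05.

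**Figure D5:**
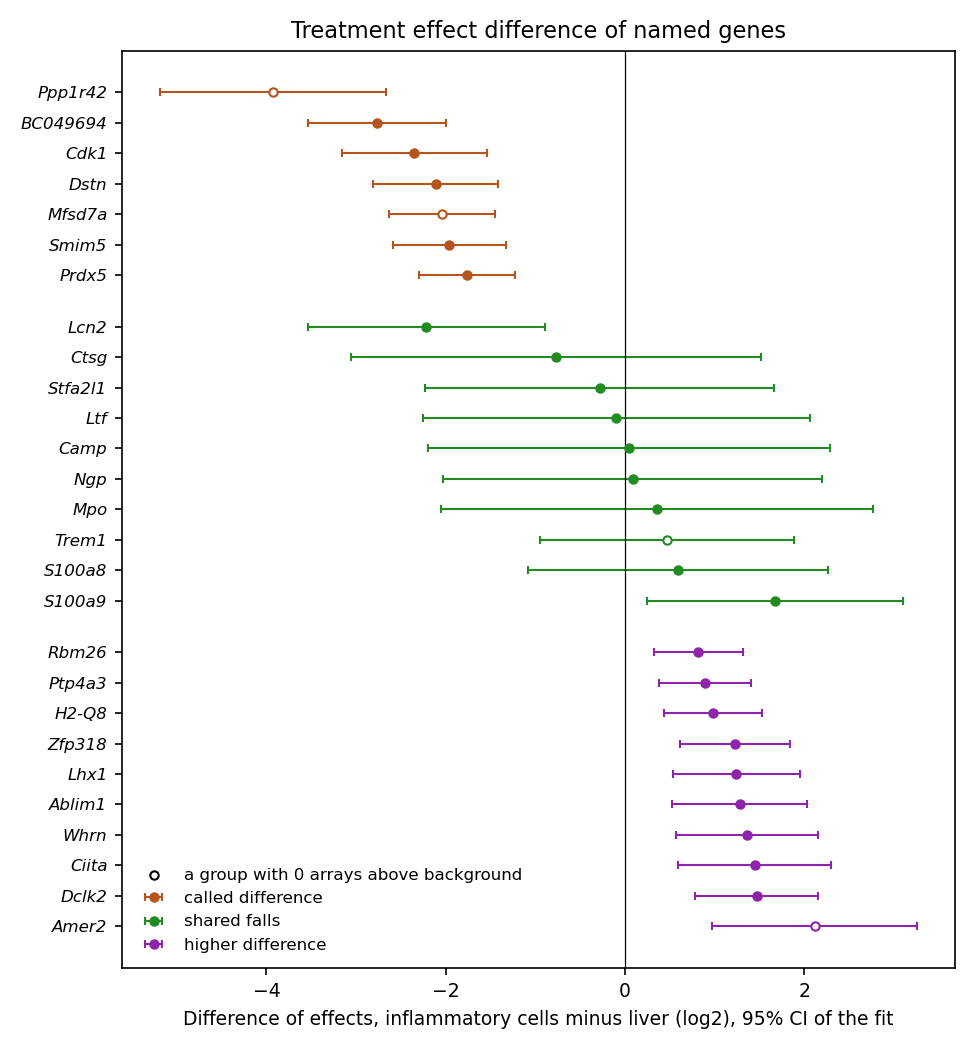
Difference of the log2 treatment effects, inflammatory cells minus liver, with the 95% interval of the fit. Shown are the 7 called genes, 10 neutrophil genes lower in both sample types and 10 genes with a positive difference named by the smallest p. Open points mark genes with a group in which 0 arrays were well above background (Ppp1r42, Mfsd7a, Trem1 and Amer2), whose size is not measured. The other called genes lie between -2.77 and -1.76 with intervals clear of 0, and the intervals of the shared neutrophil genes cover 0 except for Lcn2 and S100a9.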

How the data were processed

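Total RNA labelled with Cy3 was measured on 16 one-colour Agilent arrays. The deposited processed signal is an intensity, per the file headers, that Feature Extraction 10.5.1.1 (also in the submitters' processing notes) background-subtracted and detrended with no scaling between arrays. The median signals of the deposited value table, whose intensities equalled the scanner signals, ran from 30.6 to 90.9. It is on the linear scale, not centred, and single-channel, so it has no direction. Of 43379 non-control spots (41174 probes) per array, 71 to 124 outliers were left out and 0 were saturated. Between 51.6% and 66.3% of probes were well above background, which together with 4 arrays per group limits the precision.

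The log2 signal minus the array's 75th percentile was averaged over the spots of a probe. The probe with the highest mean stood for a gene. Accessions matched RefSeq symbols for 23366 probes (16531 symbols), and 17808 probes kept the file's name. Genes were fitted in R 4.3.3 with limma 3.58.1 (lmFit, eBayes; 4 group means, all 16 arrays), with Benjamini-Hochberg adjustment over all genes tested and a threshold of 0.05. The shared test took the larger p of both effects where their signs agreed. A fold written as at least is for a probe above background nowhere in one group: the brighter mean against the mean, per array, of the higher of the probe's signal and the lowest signal well above background. The fits were tested on simulated data.

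Named genes were, for the difference, the 10 most negative and 10 most positive called, filled up by the smallest p. For shared and opposed effects they were the 8 and 5 with the smallest p. To these came each list's member with the smallest p and a fixed set. The members and gene lists were chosen with earlier results of these data known. Alternatives covered scaling, background correction, filters, probe averaging, replicate number, slide, scan day, array weights, the 3 pancreas-rich arrays, separate fits and each array left out. Permuting within numbered pairs was planned and not run, as it is not settled that the numbers pair the samples. Not every gene that passed a test is reported here.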

Additional observations from a re-analysis of the deposited data

Results flagged for a closer look

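The difference between the treatment effects in inflammatory cells and liver passed the test for 7 genes, by a contrast of the limma fit: -3.93 for Ppp1r42 (adjusted p = 0.0338), -2.77 for BC049694 (0.0225), -2.35 for Cdk1 (0.0481), -2.11 for Dstn (0.0372), -2.04 for Mfsd7a (0.0225), -1.96 for Smim5 (0.0338) and -1.76 for Prdx5 (0.0281). The sizes for Ppp1r42 and Mfsd7a rest on inflammatory cells ADSC signals below background.

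Single arrays stood apart from the 3 others of their group in 19 of 408 groups of named genes; chance flags about 1 in 20. In liver PBS they were Ccl9 on array 11 (4.53), Wfdc21 on array 12 (5.16, low), Ddit3 on array 13 (-0.095) and Zfp318 on array 13 (-0.52). In liver ADSC they were Col1a1 (4.33), Thbs1 (-2.83) and Il17a (-5.16) on array 7, Orm1 on array 8 (5.41), Lhx1 on array 9 (-1.37) and Cxcr2 on array 10 (-1.30). In inflammatory cells PBS they were Flt3 on array 12 (-1.44), Col4a1 (0.85), Tgfb1 (-0.20) and Thbs1 (0.26) on array 13, and Stfa2l1 (3.76, low) and Trem1 (3.05, low) on array 14. In inflammatory cells ADSC they were Ddit3 on array 7 (2.19) and Fasn (2.77) and Saa1 (3.40) on array 10.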

How the results depend on the processing

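The calls depended on the processing more than the sizes did. The counts in the main fit were 7 for the difference, 9 for liver, 918 for inflammatory cells, 266 for the average, 0 for the shared test, 68 and 12 for shared lower and higher genes, 4 opposed, 687 one-sided in inflammatory cells and 55 one-sided in liver; counts not given for a setting stayed within 1.5 times of these. With the 75th percentile over detected probes, the difference had 1, liver 5 and opposed 8. Quantile normalization gave 21, 0 and 12, with 31 one-sided in liver; within sample types it gave liver 3 and opposed 10. Normexp with the 75th percentile gave 32 for the difference, 2 for liver, 1636 for inflammatory cells, 400 for the average, 40 shared lower, 0 shared higher, 0 opposed, 378 one-sided in inflammatory cells and 16 in liver. Normexp with quantile gave 74, 0, 1875, 403, 35, 0, 1, 433 and 12. Without the filter on dim probes the difference had 0 (2528 at an unadjusted p under 0.05) and liver 3. With probes above background on all 16 arrays the difference had 64, of which 4 were among the 7, liver 5, the shared test 2, shared lower 39, shared higher 2, opposed 0 and one-sided in liver 18. Slide as a fixed block gave 0 for the difference (2138 unadjusted), 0 for liver, 725 for the average, 41 shared lower, 112 shared higher, 34 opposed and 128 one-sided in liver. As a random block it gave liver 3 and opposed 7. Scan day as a term gave 0 (2106 unadjusted), liver 0, average 62, shared lower 42, shared higher 19, opposed 29 and one-sided in liver 119. Array weights gave 919 for the difference (597 lower, all 7 included), liver 79, inflammatory cells 4262, the shared test 7, the average 3015 and opposed 8. Without the 3 pancreas-rich arrays liver had 0, inflammatory cells 1707, the average 445, opposed 29 and one-sided in inflammatory cells 1335. Separate fits of 8 arrays gave liver 0 and inflammatory cells 243. The cause of these changes was not tested.

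With each array left out in turn, the difference had 0 to 47, liver 1 to 42, inflammatory cells 287 to 1921, the average 111 to 522, the shared test 0 to 17, shared lower 39 to 92, shared higher 4 to 23, opposed 2 to 18, one-sided in inflammatory cells 563 to 936 and one-sided in liver 46 to 89. The median difference of the mature neutrophil genes (-0.08) ranged from -0.58 to 0.37 and changed sign, as it did with the 75th percentile over detected probes (0.06) and quantile normalization within sample types (0.09); the average effects of the 8 shared genes, the 7 called differences and the medians of the macrophage, cell cycle, B cell and both granule lists kept their sign. The replicate numbers were checked as a possible pairing of liver with inflammatory cells: of the 8 correlations between arrays of the same number, 1 was over 0.1. That value, 0.17 for number 12, was also the highest among all pairs of arrays with the same treatment. Correlations over all genes between such unlike samples cannot decide whether a number marks a shared animal. The fit with the replicate number as a fixed block had 0 calls for the difference (2046 unadjusted) and as a random block 7. The deposited value table was not run as an alternative, since its intensities equalled the scanner signals, and the permutation within numbered pairs was not run.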
